A study of Gallus gallus with 5 samples.

Results

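Chromosomes 6 to 10 of the chicken were described through their peaks in chromatin immunoprecipitation with sequencing (ChIP-seq) for the histone marks H3R2me2s and H4R3me2a and in input chromatin. All peaks listed on chromosome 6, 7, 8, 9 or 10 were taken, which gave 73120 of the 425322 peaks in the 5 deposited lists (17.2%). H3R2me2s contributed 18839 peaks in replicate 1 and 19828 in replicate 2, H4R3me2a 14030 and 19163, and the input 1260. The highest peak ends lay at 37.4 Mb on chromosome 6, 38.4 Mb on chromosome 7, 30.7 Mb on chromosome 8, 25.6 Mb on chromosome 9 and 22.6 Mb on chromosome 10. These lengths fell between those of chromosome 5 (62.2 Mb) and chromosome 11 (21.9 Mb), so the 5 chromosomes were intermediate in size as their name says.

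Chicken erythrocytes at the immature, polychromatic stage, in G0 and with no treatment named, were the source of the nuclei. The chromatin was fixed with 0.5% formaldehyde and sheared to 200 bp. There were 2 libraries for each of the marks and 1 of input chromatin, taken without antibody. For both marks, replicate 1 was sequenced on SOLiD and its peaks were called against 1 shared control. Replicate 2, like the input, was sequenced on Illumina and called without a control, so platform, caller, control and depth changed together with the replicate number. The design text names biological replicates, but the labels do not say that they came from separate animals, and any spread given below may be technical. The labels give no age, and they name the breed as Bovan in the description and as Lohmann in the characteristics. The file headers and the labels also disagreed on the numbers of the alignment files of the 3 Illumina libraries: 11 against 10 for H3R2me2s replicate 2, 12 against 11 for H4R3me2a replicate 2, and 10 against 12 for the input. Statements on these libraries rest on the labels. Depth after filtering was 10.3 to 35.1 M tags per library, and the SOLiD libraries were the shallowest. The identity of the cells could not be checked against marker genes, because no annotation of the build of the lists was used here.

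The chicken genome is divided into a few large macrochromosomes, a group of intermediate chromosomes and many small microchromosomes, and the small ones are known to be rich in genes, GC and recombination. H4R3me2a is histone H4 with an asymmetric dimethyl group on arginine 3. It is laid down mainly by PRMT1, and in chicken erythroid cells it is known from the active chromatin of the beta-globin domain, where it precedes histone acetylation. H3R2me2s is histone H3 with a symmetric dimethyl group on arginine 2. It is laid down by PRMT5 and PRMT7 and is known from mammalian cells as a mark of promoters that favours binding of WDR5, a subunit of the complexes that methylate lysine 4 of histone H3. Avian erythrocytes keep their nucleus, which is largely condensed and transcribes few genes.

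Each of the 5 chromosomes held a single stretch of about 1.5 Mb with no peak in any list. It lay at the low-coordinate end of chromosome 6 (6:1-1500067) and of chromosome 9 (9:1-1499938). On the other chromosomes it lay between peaks, at 7:7306334-8806979, 8:10228338-11734206 and 10:1941731-3441678. The next longest stretch without a peak on these chromosomes was 127 to 238 kb long. Chromosomes 1 to 5 and Z each held a like stretch, and chromosomes 11 to 28 held none over 1 Mb. Whether these stretches are gaps of the assembly was not tested. They were left out of all lengths, which left 35.9, 36.9, 29.2, 24.1 and 21.1 Mb for chromosomes 6 to 10 in order and 147.1 Mb in all.

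By relative density, peaks of both marks stood above the genome as a whole on all 5 chromosomes, only slightly on chromosome 7. Input peaks stood below it. Density was set relative to each list's own density over all chromosomes, so that lists of different length could be placed side by side. Chromosome 9 stood highest. Its H3R2me2s peaks were 1.51 times as dense as the whole list in replicate 1 and 1.26 times in replicate 2, and its H4R3me2a peaks 1.51 and 1.31 times. The means over libraries were 1.39 ± 0.174 and 1.41 ± 0.145 (SD, n = 2).

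Chromosomes 8 and 10 followed, and they differed by less than the spread between replicates. On chromosome 8 the relative density of H3R2me2s was 1.37 in replicate 1 and 1.16 in replicate 2, and that of H4R3me2a was 1.39 and 1.20. Chromosome 10 had 1.37 and 1.22 for H3R2me2s and 1.39 and 1.23 for H4R3me2a. Chromosome 6 had 1.13 and 1.0997 for H3R2me2s and 1.08 and 1.13 for H4R3me2a. Chromosome 7 was the least dense of the 5, with 1.07 and 1.02 for H3R2me2s and 1.02 and 1.047 for H4R3me2a. By mean relative density the order was nearly the reverse of that of length, and chromosome 7 is the longest of the 5. The exception was chromosome 9, which is longer than chromosome 10 and was denser in every ChIP list. For both marks the means of these chromosomes differed by less than the SD over replicates. On chromosome 7 the excess over the list depended on the unit. By bases covered in place of peaks its mean relative value was 0.980 for H3R2me2s and 0.959 for H4R3me2a. By replicate these were 0.956 and 1.003, and 0.902 and 1.02, so only replicate 1 fell under 1. H4R3me2a replicate 1 also did so on chromosome 6, at 0.988.

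Input peaks numbered 338, 246, 278, 195 and 203 on chromosomes 6 to 10 in order. Their relative density was lowest on chromosome 7, at 0.664, and 0.807 on chromosome 9, the chromosome with the densest marks. It was 0.938 on chromosome 6, 0.949 on chromosome 8 and 0.960 on chromosome 10. In peaks per Mb, the input had 6.67 on chromosome 7 (95% Poisson interval 5.86 to 7.56) and 9.64 on chromosome 10 (8.36 to 11.1), and the 2 intervals did not overlap. The whole input list had 10.04 per Mb, inside the intervals of chromosomes 6 (8.44 to 10.47), 8 (8.44 to 10.72) and 10. On chromosome 9 the interval, 7.01 to 9.33, lay below it, as on chromosome 7. These intervals, like all those given here, cover counting error only and treat neighbouring peaks as independent, which they are not.

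**Figure D1:**
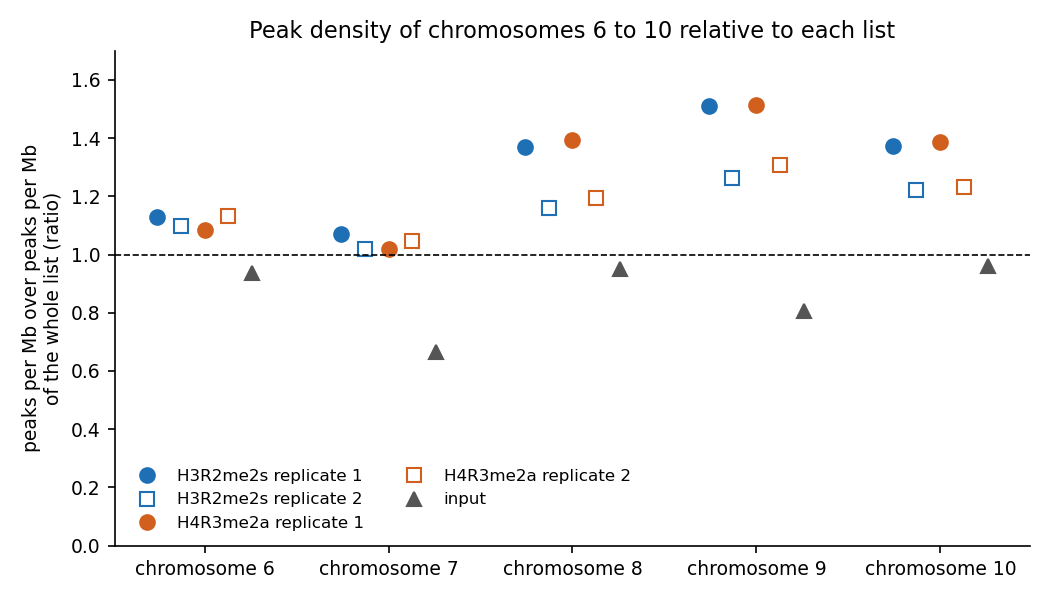
Peak density of each chromosome relative to the whole list (ratio, vertical axis; dashed line at 1) for the 5 lists: circles are replicate 1, open squares replicate 2 and triangles the input, each point 1 library. The 4 ChIP lists lie above 1 and the input below 1 on every chromosome, and chromosome 9 is highest for both marks.

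Together the 5 chromosomes lay between the larger and the smaller ones for the marks but not for the input. Pooled, H3R2me2s had a relative density of 1.26 in replicate 1 and 1.14 in replicate 2, and H4R3me2a one of 1.24 and 1.17. The same values were 0.677 and 0.851, and 0.648 and 0.846, on chromosomes 1 to 5, and 2.16 and 1.65, and 2.25 and 1.68, on chromosomes 11 to 28. In all 4 ChIP lists the 3 size classes stood in the same order. The input was at 0.853 on chromosomes 6 to 10, below both 0.977 on chromosomes 1 to 5 and 1.20 on chromosomes 11 to 28. With 2 libraries per mark no exact permutation test over libraries could reach the threshold; the smallest p it allows is 0.333 between the marks and 0.5 within pairs.

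The peaks themselves also differed between the chromosomes, and in opposite ways on the platforms. In the SOLiD lists, the median H3R2me2s peak of each of chromosomes 8, 9 and 10 stood at percentile 55.0 of its list by the authors' fold enrichment, where 100 is the highest fold. Its fold was 10.27 on each of these chromosomes, and tied folds share the same percentile. The median H4R3me2a peak stood at percentiles 53.4, 53.4 and 56.1 there. On chromosomes 6 and 7 the percentiles were 46.9 and 45.6 for H3R2me2s, with 47.8 and 45.8 for H4R3me2a. In the Illumina lists the order was turned round, with H3R2me2s percentiles of 53.3 and 53.4 on chromosomes 6 and 7 and of 45.5, 43.6 and 41.8 on chromosomes 8, 9 and 10. H4R3me2a replicate 2 had 51.4 and 51.6 on chromosomes 6 and 7, and 45.2 to 47.3 on chromosomes 8, 9 and 10. The same turn was found between the size classes outside these chromosomes. Chromosomes 1 to 5 had 44.6 and 59.0 for H3R2me2s and 44.8 and 58.1 for H4R3me2a in replicates 1 and 2. Chromosomes 11 to 28 had 59.8 and 31.0 for H3R2me2s and 61.2 and 32.9 for H4R3me2a. Fold enrichment is measured against the local background, and the libraries differed in how that background was made; its part in this turn was not tested.

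Neighbouring H3R2me2s peaks lay closer together on chromosomes 8, 9 and 10 than on the less dense chromosomes 6 and 7. In H3R2me2s replicate 1 the median gap to the next peak was 1.28 kb on chromosome 9, 1.32 kb on chromosomes 8 and 10, 1.86 kb on chromosome 7 and 1.91 kb on chromosome 6. On chromosome 9, 44.3% of those gaps were under 1 kb, and on chromosome 6, 35.7%. In H3R2me2s replicate 2 the gaps were wider, from 2.95 kb on chromosome 10 to 3.67 kb on chromosome 7. For H4R3me2a replicate 1 the median gaps were 1.47, 1.59 and 1.56 kb on chromosomes 8, 9 and 10, and 2.28 and 2.29 kb on chromosomes 6 and 7. For H4R3me2a replicate 2 the gap on chromosome 8 (3.51 kb) was wider than that on chromosome 6 (3.41 kb). Median peak widths varied little between the chromosomes within a list, from 677 to 718 bp for H3R2me2s replicate 1 and from 599 to 621 bp for replicate 2. H4R3me2a peaks had medians of 762 to 825 bp in replicate 1 and 414 to 432 bp in replicate 2, and input peaks 152 to 175 bp.

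The marks were distributed over the 5 chromosomes in nearly equal proportion. The relative density of H4R3me2a over that of H3R2me2s was 0.959 and 1.03 on chromosome 6, 0.951 and 1.03 on chromosome 7, 1.02 and 1.03 on chromosome 8, 1.003 and 1.04 on chromosome 9 and 1.01 on chromosome 10 in both replicates. On chromosomes 6 and 7 the replicates lay on opposite sides of 1. The means over replicates ran from 0.988 ± 0.0528 (SD, n = 2) on chromosome 7 to 1.02 ± 0.00988 on chromosome 8.

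Along the chromosomes, density was followed in 140 full bins of 1 Mb, of which 35 lay on chromosome 6, 36 on chromosome 7, 27 on chromosome 8, 23 on chromosome 9 and 19 on chromosome 10. H3R2me2s peaks per bin ran from 12 to 449 in replicate 1, with a median of 99.5, and from 29 to 263 in replicate 2, with a median of 118. H4R3me2a peaks ran from 8 to 366 with a median of 67.5 and from 18 to 273 with a median of 116. The input ran from 0 to 39 with a median of 6. The range was wider in the SOLiD lists of both marks. Bins were ordered nearly alike by the marks: Spearman's rho over the 140 bins between H3R2me2s and H4R3me2a was 0.978 in replicate 1 and 0.988 in replicate 2, and between replicates of a mark it was 0.951 and 0.927. The bins share libraries of 1 platform and, in replicate 1, a control, so these values are descriptions. Between the input and the ChIP lists rho lay between -0.0372 and 0.0449.

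**Figure D2:**
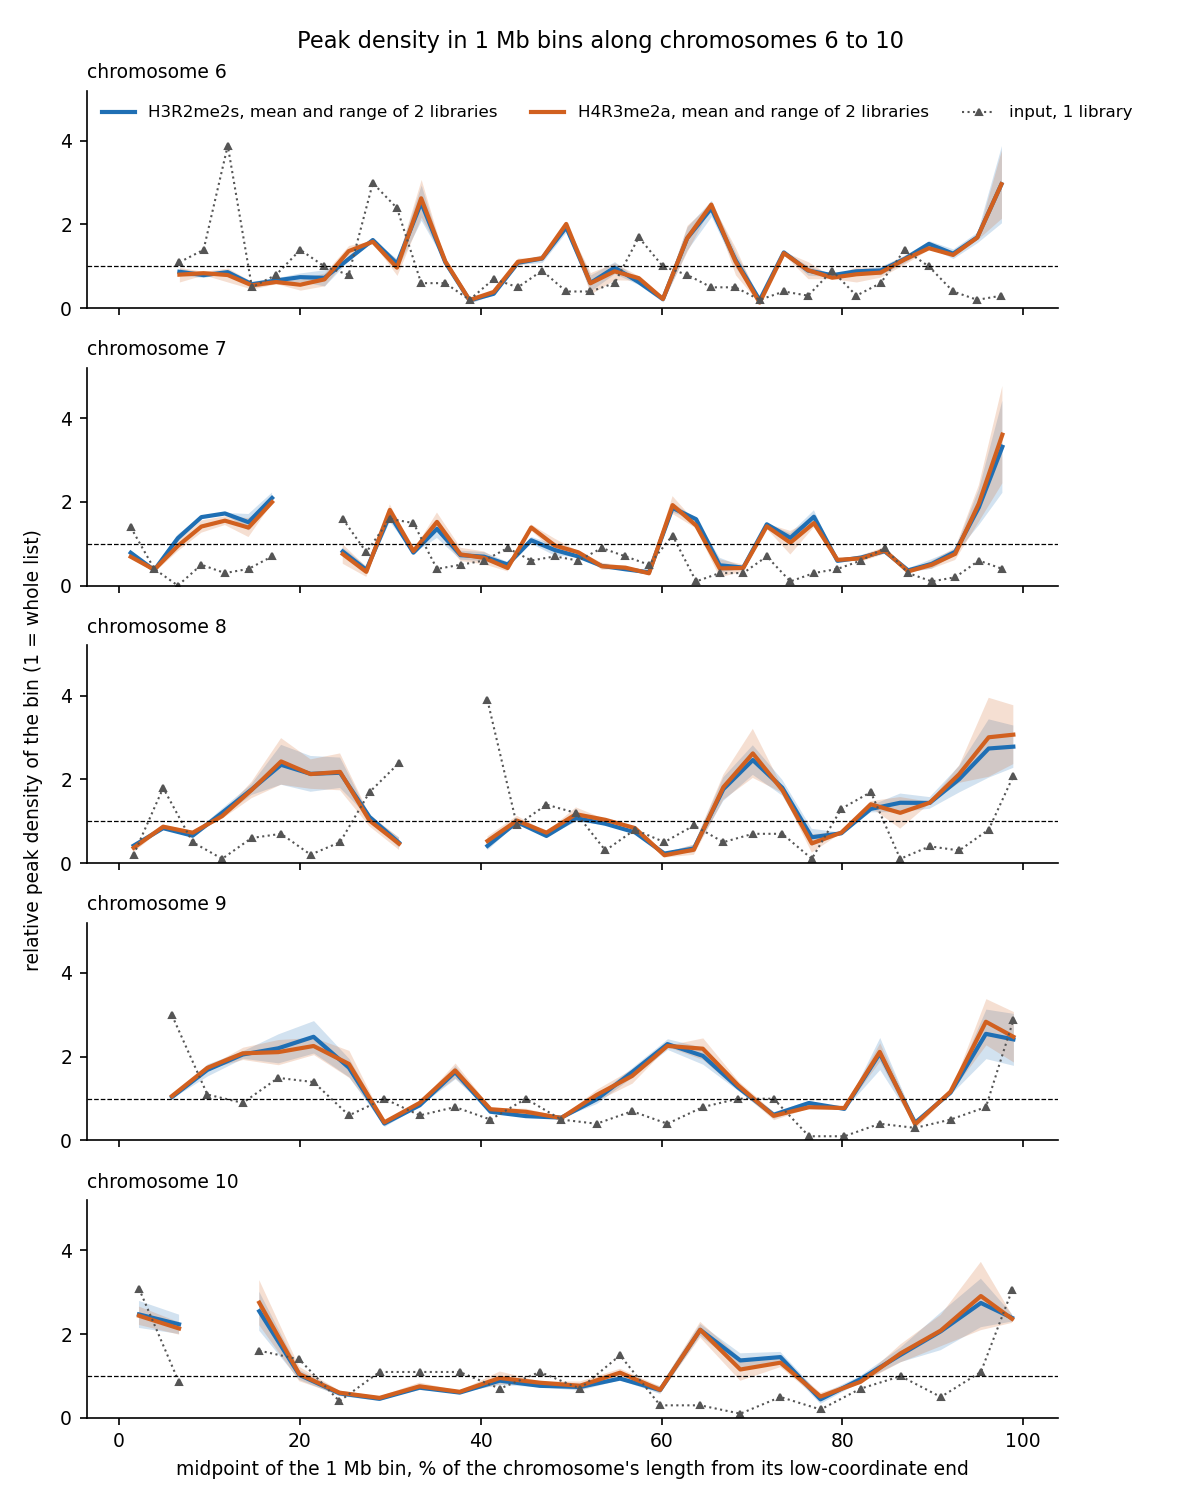
Relative peak density (vertical axis, 1 = density of the whole list) in 1 Mb bins along each chromosome, by position in % of its length; lines are means and shaded bands the range of 2 libraries for H3R2me2s (blue) and H4R3me2a (orange), and dotted triangles the 1 input library. Bins with less than 0.5 Mb of usable length are not drawn, and lines break there; the lines of the marks run close together, and in the last full bin of every chromosome the mean over the 4 ChIP lists is 2.69 to 3.46.

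A bin was called dense where all 4 ChIP lists reached 1.5 times their own list's density, and sparse where all 4 stayed at or under 0.5 times; these limits were chosen with the data known. Of the 140 bins, 31 (22.1%) were dense, against 15.1% of all 972 full bins of the genome. Sparse bins numbered 13 (9.29%), against 22.0% of all bins. Bins with at least 2 times the input density numbered 6 (4.29%), against 6.58% of all bins. Chromosome 9 had the highest share of dense bins, 9 of 23 (39.1%), followed by chromosome 8 with 8 of 27 (29.6%), chromosome 10 with 4 of 19 (21.1%), chromosome 6 with 6 of 35 (17.1%) and chromosome 7 with 4 of 36 (11.1%). Sparse bins were most frequent on chromosome 7, with 5 of 36, and chromosome 10 had 0 of 19.

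On chromosome 6, dense bins were scattered, at 10 to 11, 12 to 13, 18 to 19, 24 to 25 and 35 to 37 Mb. The bin at 12 to 13 Mb held 299 and 249 H3R2me2s peaks and 236 and 243 H4R3me2a peaks in replicates 1 and 2, with 6 input peaks. Chromosome 6 also held the emptiest bin of the 5 chromosomes by the mean of the 4 lists. This bin, at 26 to 27 Mb, held 12 and 31 H3R2me2s peaks, 8 and 18 H4R3me2a peaks and 2 input peaks, which is 0.118 and 0.261 times the density of the H3R2me2s lists and 0.104 and 0.161 times that of the H4R3me2a lists. The sparse bins at 14 to 16 Mb held 45 and 73 H3R2me2s peaks and 41 and 70 H4R3me2a peaks in 2 Mb.

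On chromosome 7, the 4 dense bins stood alone, at 6 to 7, 11 to 12, 23 to 24 and 37 to 38 Mb. The last of them was the densest bin of the 5 chromosomes, with 449 and 263 H3R2me2s peaks, 366 and 273 H4R3me2a peaks and 4 input peaks. That is 4.42 and 2.22 times the density of the H3R2me2s lists, 4.77 and 2.44 times that of the H4R3me2a lists and 0.398 times that of the input. Its sparse bins lay at 1 to 2, 10 to 11, 21 to 23 and 33 to 34 Mb.

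On chromosome 8, the dense bins formed 3 blocks. The longest, at 4 to 8 Mb, held 995 and 830 H3R2me2s peaks and 769 and 774 H4R3me2a peaks, with mean relative densities of 2.45 and 1.75 and of 2.50 and 1.73. The input stood at 0.498 times its list there. The others lay at 21 to 23 and 28 to 30 Mb. A sparse block at 18 to 20 Mb held 47 and 81 H3R2me2s peaks and 25 and 76 H4R3me2a peaks.

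Chromosome 9 held the longest dense block, of 5 bins at 2 to 7 Mb. It held 1153 and 1064 H3R2me2s peaks, 845 and 1006 H4R3me2a peaks and 55 input peaks, with mean relative densities of 2.27 and 1.79, of 2.20 and 1.80 and of 1.10 in the input. Further dense bins lay at 15 to 17, 21 to 22 and 24 to 25 Mb. The sparse bin at 22 to 23 Mb, with 38 and 56 H3R2me2s peaks and 22 and 54 H4R3me2a peaks, lay directly beside the dense bin at 21 to 22 Mb, with 250 and 201, and 179 and 212.

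Chromosome 10 was dense at both ends and held no sparse bin. Dense bins lay at 0 to 1, 14 to 15 and 20 to 22 Mb. The bin at 0 to 1 Mb held 284 and 255 H3R2me2s peaks and 204 and 248 H4R3me2a peaks, and it was also high in the input, with 31 peaks or 3.09 times the input's density. Its part in the ChIP counts there was not tested. The lowest bin, 10:6000001-7000000, held 41 and 60 H3R2me2s peaks and 34 and 57 H4R3me2a peaks.

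Of the 6 bins high in the input, 2 were dense in the marks, beside 31 of all 140 full bins here. These were the first bin of chromosome 10 and the bin at 10 to 11 Mb of chromosome 6. The other 4 were not dense in the marks. On chromosome 8, the bin 8:12000001-13000000 held 39 input peaks, 3.88 times the density of the input list, while H3R2me2s stood at 0.305 and 0.514 times and H4R3me2a at 0.417 and 0.636 times. On chromosome 6, the bin 6:4000001-5000000 also held 39 input peaks, with 86 and 104 H3R2me2s peaks and 48 and 107 H4R3me2a peaks, all below the density of their lists.

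The ends were compared with the inner parts of the same chromosomes, taking the terminal 2 Mb with peaks at each end. At the high-coordinate end both marks were dense on all 5 chromosomes. Pooled, H3R2me2s was 2.75 and 1.80 times as dense there as in the inner parts in replicates 1 and 2, with a mean of 2.28 ± 0.673 (SD, n = 2). H4R3me2a was 2.99 and 1.86 times as dense, with a mean of 2.43 ± 0.798. The difference between the marks was smaller than that between the replicates. The input was 1.54 times as dense.

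By chromosome, the high-coordinate end of chromosome 7 stood out most in replicate 1, with 3.42 times the inner density for H3R2me2s and 3.88 times for H4R3me2a, but not in replicate 2, with 1.77 and 1.89. Chromosome 6 had 2.81 and 1.75 for H3R2me2s and 3.01 and 1.84 for H4R3me2a, while its input was at 0.817. Chromosome 8 had 2.58 and 1.87, and 2.91 and 1.88. Chromosome 9 had the lowest values, 2.09 and 1.54 and 2.19 and 1.68, beside an input of 2.08. Chromosome 10 had 2.89 and 2.04, and 2.98 and 2.00, beside an input of 1.92.

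The low-coordinate end did not share this excess. Pooled, it was 1.08 and 1.04 times as dense as the inner parts for H3R2me2s and 1.03 and 1.04 times for H4R3me2a. The pooled value hid opposite ends. On chromosome 8 the low-coordinate end held 0.481 and 0.561 times the inner density of H3R2me2s and 0.460 and 0.555 times that of H4R3me2a. On chromosome 7 these values were 0.601 and 0.572, and 0.572 and 0.543, and on chromosome 6 they were 0.688 and 0.793, and 0.589 and 0.842. On chromosome 9 all 4 lists lay above 1, at 1.12 and 1.23 and at 1.10 and 1.27. On chromosome 10 the low-coordinate end was dense too, with 2.53 and 2.03 for H3R2me2s and 2.34 and 2.03 for H4R3me2a. Its ends were close in replicate 2, and the high-coordinate end was the denser one in replicate 1. The input was 1.78 times as dense at the low-coordinate end in the pool. It was above 1 on each chromosome, but only at 1.07 on chromosome 8, from 20 peaks. Counted from coordinate 1 with the stretches without peaks left in, the pooled value fell under 1, to 0.746 for H3R2me2s and 0.725 for H4R3me2a.

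**Figure D3:**
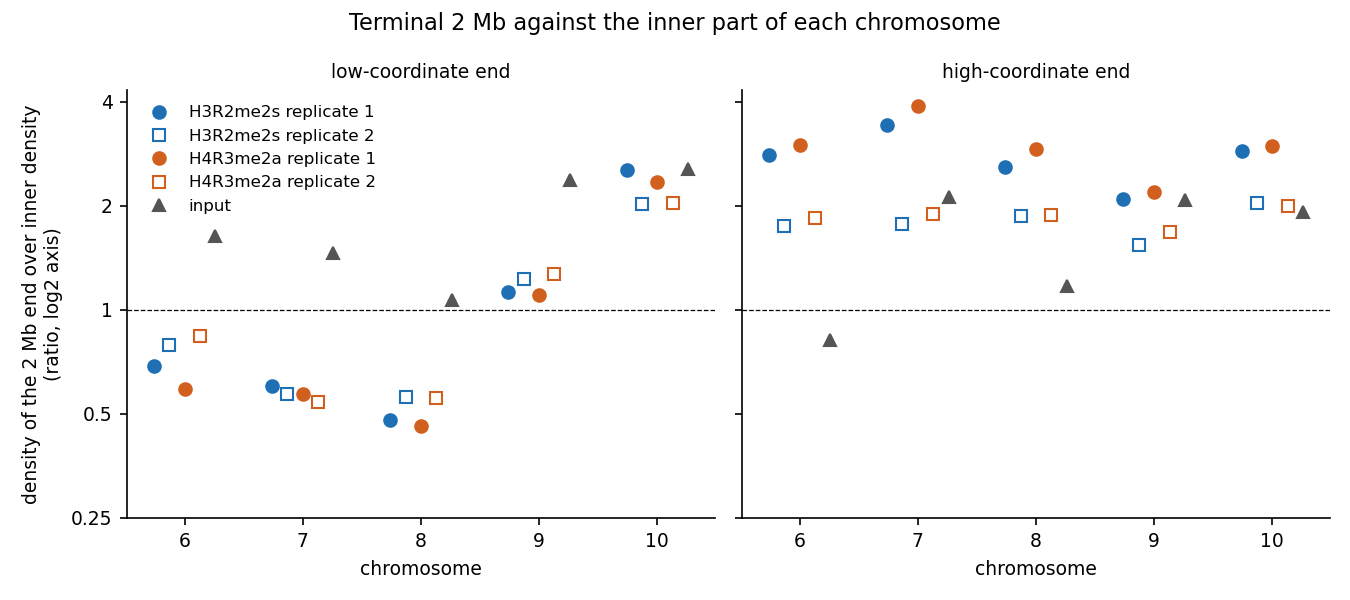
Density of the terminal 2 Mb over the inner density of the same chromosome (ratio on a log2 axis, dashed line at 1), at the low-coordinate end on the left and the high-coordinate end on the right; each point is 1 library. All ChIP points of the high-coordinate end lie above 1, and at the low-coordinate end the ChIP points of chromosomes 6, 7 and 8 lie below 1 and those of chromosome 10 above 2.

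In steps of 0.5 Mb the marks and the input had different shapes at the high-coordinate end. The last 0.5 Mb, pooled over the 5 chromosomes, held 2.99 times the density of the input list, and the next 0.5 Mb held 0.558 times. H3R2me2s went the other way, from 2.51 to 4.01 times in replicate 1 and from 1.89 to 2.22 times in replicate 2. H4R3me2a went from 2.74 to 4.20 times and from 2.03 to 2.35 times. Both marks then fell with distance, to 1.02 and 1.07 and to 0.964 and 1.12 at 3 to 3.5 Mb. In replicate 2 the pooled rise over the outermost 1 Mb was not shared by all chromosomes. On chromosome 7 H3R2me2s rose from 76 to 140 peaks and H4R3me2a from 78 to 148. On chromosomes 6 and 8 H3R2me2s went from 118 to 126 and from 125 to 130. There H4R3me2a fell, from 127 to 122 and from 128 to 121. At the low-coordinate end the first 0.5 Mb held 2.71 times the density of the input list, beside 1.21 and 1.12 for H3R2me2s and 1.08 and 1.12 for H4R3me2a. Without the outermost 0.5 Mb, the input at the high-coordinate end was at 0.780 times its inner density.

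**Figure D4:**
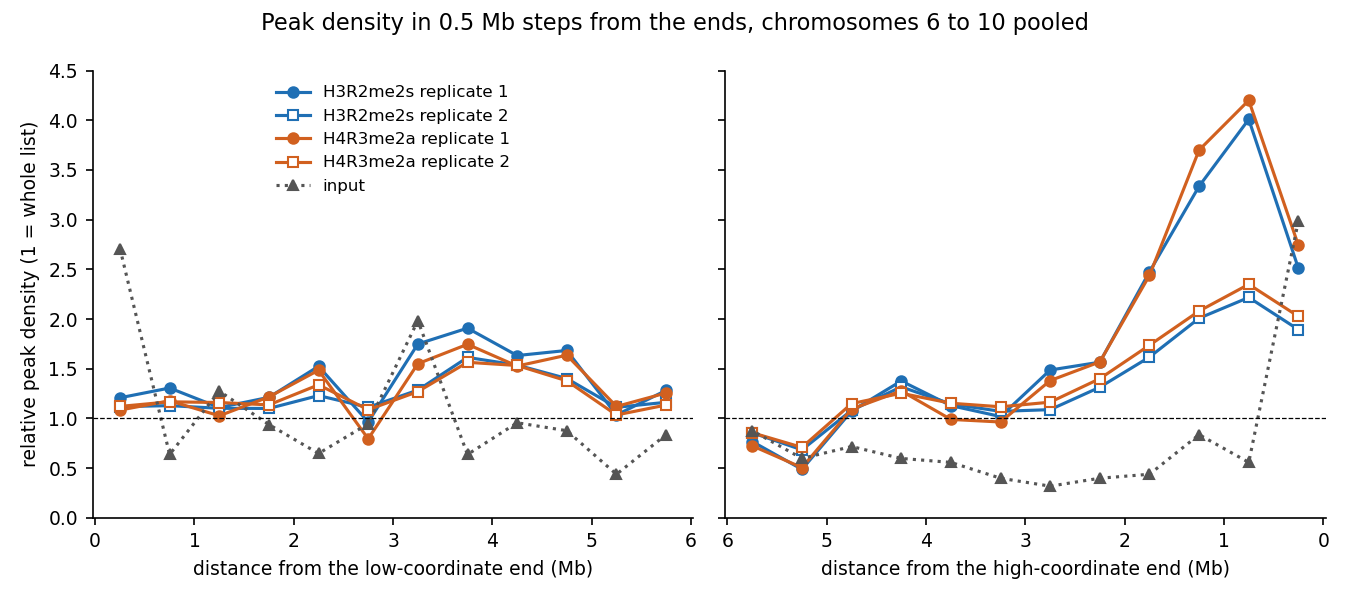
Relative peak density (1 = whole list) in steps of 0.5 Mb from the low-coordinate end (left) and the high-coordinate end (right), chromosomes 6 to 10 pooled, distance in Mb; each line is 1 library. The input is highest in the outermost step at both ends, and the marks are highest 0.5 to 1 Mb from the high-coordinate end.

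The last full bin was the densest of its chromosome on all 5 chromosomes by the mean of the 4 lists. This held on 5 of 5 chromosomes in either replicate 1 list, on 2 of 5 in H3R2me2s replicate 2 and on 3 of 5 in H4R3me2a replicate 2. Among the 17 other numbered chromosomes with at least 5 full bins, the last bin was the densest on 8 by the same mean. By single lists it was the densest on 5 and 6 of these 17 for H3R2me2s in replicates 1 and 2. For H4R3me2a it was the densest on 8 of 17 in either replicate. Whether the 5 chromosomes differ from the other chromosomes in this was not tested.

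At the high-coordinate ends a smaller share of replicate 1 peaks lay on replicate 2 peaks than elsewhere. In those ends 56.7% of H3R2me2s replicate 1 peaks (95% Wilson interval 55.0 to 58.4) overlapped a replicate 2 peak by at least 1 bp, against 66.8% (66.04 to 67.57) in the inner parts and 66.7% at the low-coordinate ends. For H4R3me2a the shares were 59.6% (57.6 to 61.5), 71.4% (70.5 to 72.2) and 71.9%. The balance of the lists changed too. H3R2me2s had 3134 peaks in replicate 1 and 2296 in replicate 2 at the high-coordinate ends, but 14483 and 16219 in the inner parts. For H4R3me2a these numbers were 2510 and 2288, and 10661 and 15602. The part of this balance in the shares was not tested. In the replicate 2 lists, 4.92% of the H3R2me2s peaks and 5.42% of the H4R3me2a peaks of these ends were among the 10% of highest fold enrichment, against 10.05 and 9.82% in the inner parts. In the replicate 1 lists, 9.80 and 10% were, against 9.38 and 8.95%.

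Over the 5 chromosomes as a whole, overlaps were close to those of the whole lists. Of the H3R2me2s peaks of replicate 1, 65.1% (64.4 to 65.8) overlapped a peak of replicate 2, against 65.9% of the whole list. H4R3me2a gave 69.3% (68.5 to 70.05), against 68.5%. By chromosome the shares ran from 63.7% on chromosome 9 to 66.6% on chromosome 6 for H3R2me2s, and from 67.9% on chromosome 8 to 71.9% on chromosome 6 for H4R3me2a. Between the upper 50% of each list by fold enrichment only 31.6 and 36.0% overlapped.

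The marks shared most of their sites on each platform. An H3R2me2s peak lay on 90.5% (89.96 to 90.93) of the H4R3me2a peaks in replicate 1, against 89.3% of the whole list. In replicate 2 it was 83.4% (82.9 to 84.0), against 84.3%. Chromosomes 8, 9 and 10 had 91.6, 91.8 and 91.5% in replicate 1, and chromosomes 6 and 7 had 88.9 and 88.7%. In replicate 2 the 5 chromosomes lay within 83.1 to 83.7%. The summits of overlapping peaks of the marks were a median of 38 bp apart in replicate 1 and 79 bp in replicate 2, against 40 and 81 bp over all chromosomes.

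Regions with both marks in all 4 lists numbered 8783 and covered 2.86% of the 5 chromosomes. They covered 3.59% of chromosome 9, 3.19% of chromosome 10, 3.14% of chromosome 8, 2.58% of chromosome 6 and 2.24% of chromosome 7. The longest measured 2967 bp and lay on chromosome 6. This order is also that of the chromosomes by mean peak density, in which chromosomes 8 and 10 lay close together.

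Fewer ChIP peaks lay on input peaks here than in the whole lists. The shares were 2.86% (2.63 to 3.11) and 4.83% (4.54 to 5.14) for H3R2me2s replicates 1 and 2, against 3.72 and 6.13% of the whole lists. For H4R3me2a they were 4.35% (4.03 to 4.71) and 5.04% (4.74 to 5.35), against 5.16 and 6.63%. All 4 intervals lay below the share of the whole list. Chromosomes 11 to 28 were as low or lower. There the H3R2me2s shares were 2.76% in replicate 1 and 4.76% in replicate 2, and the H4R3me2a shares 3.95% and 5.01%. Chromosomes 1 to 5 stood above the whole lists, with H3R2me2s reaching 4.70 and 7.04% and H4R3me2a 6.46 and 7.62%. Input peaks covered 0.177% of chromosomes 6 to 10, 0.209% of all chromosomes and 0.263% of chromosomes 11 to 28. The part of this cover in the shares was not tested. Chromosome 7, where the input was sparsest, had 2.49 and 4.25% for H3R2me2s and 3.85 and 4.36% for H4R3me2a. Chromosome 6 had 3.46 and 5.23%, and 5.52 and 5.51%. Where an input peak had to cover at least 50% of the ChIP peak, the shares on the 5 chromosomes fell to between 0.207 and 0.647%. Median widths here were 156 bp for input peaks and 423 to 795 bp for the ChIP lists. An input peak of median width cannot cover 50% of a ChIP peak of median width, so this setting says little on whether sites are shared.

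Seen from the input, its peaks lay on ChIP peaks in larger shares here than over all chromosomes. Of the 1260 input peaks, 52.2% (49.5 to 55.0) lay on H3R2me2s replicate 1 peaks and 94.0% (92.5 to 95.2) on replicate 2 peaks, against 49.3 and 89.3% of all input peaks. H4R3me2a peaks lay on 59.9% (57.2 to 62.6) in replicate 1 and 91.7% (90.1 to 93.1) in replicate 2, against 52.3 and 87.6%. Chromosomes 11 to 28 also stood above all chromosomes, with 61.9 and 93.8% for H3R2me2s and 70.7 and 92.0% for H4R3me2a. Chromosomes 1 to 5 stood below them, with 43.5 and 88.0% for H3R2me2s and 43.0 and 86.2% for H4R3me2a. The cover of the chromosomes by ChIP peaks, which was also above that of the genome (12.1 against 9.91% for H3R2me2s replicate 1), moves with these shares. Its part in them was not tested. Replicate 1 was called against a control, while replicate 2 and the input shared platform and caller and had no control. The part of this in the gap between the replicates was not tested either.

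Sites of only 1 mark were few. Of the 13166 regions found in both H3R2me2s replicates, 892 (6.78%, 6.36 to 7.22) had no H4R3me2a peak in either replicate, against 6.86% of all such regions. Of the 10907 H4R3me2a regions, 242 (2.22%, 1.959 to 2.512) had no H3R2me2s peak, against 2.32%. The shares for H3R2me2s ran from 6.39% on chromosome 8 to 7.40% on chromosome 7, and those for H4R3me2a from 1.78% on chromosome 8 to 2.80% on chromosome 6. The H4R3me2a lists were the shorter ones. With equal numbers of top peaks the shares were 5.92 and 6.61%, so the order of the marks turned. Within replicate 1 alone they were 30.7 and 9.54%, and within replicate 2 alone 24.98 and 16.5%.

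The sites of 1 mark named here were picked for the lowest mean rank by fold enrichment, so a high place in their lists was fixed by the choice. For H3R2me2s the first was 6:7160026-7160226, a region of 201 bp whose peaks stood in the top 26.4% of replicate 1 and the top 14.4% of replicate 2. For H4R3me2a the first was 6:9599192-9599621, of 430 bp, in the top 18.0 and 9.88%. The input held no peak on either.

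A difference between the marks was tested with limma over all 1 Mb bins of the genome, on log2 of peaks per 10000 of each list. It called 0 of 1039 bins at an adjusted p under 0.05 (0.00%), 0 of the 154 bins of chromosomes 6 to 10 among them, and 0 bins had an unadjusted p under 0.05. The smallest adjusted p was 0.999. With the replicate number as a block, limma also called 0 bins; 58 had an unadjusted p under 0.05, 7 of them on these chromosomes, and the smallest adjusted p was 0.777. Over the 154 bins the median log2 difference (H4R3me2a minus H3R2me2s) was 0.01, against -0.02 over all bins. In the fit without the block, the full bin furthest to H4R3me2a was 7:17000001-18000000, with a log2 difference of 0.35 ± 0.26 (SE, adjusted p = 0.999). The one furthest to H3R2me2s was 8:23000001-24000000, with -0.43 ± 0.56 (adjusted p = 0.999). These SEs also hold the difference between replicates. The limma fit with the block gave the same differences with SEs of 0.119 and 0.126 (adjusted p = 0.777 for both bins).

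**Figure D5:**
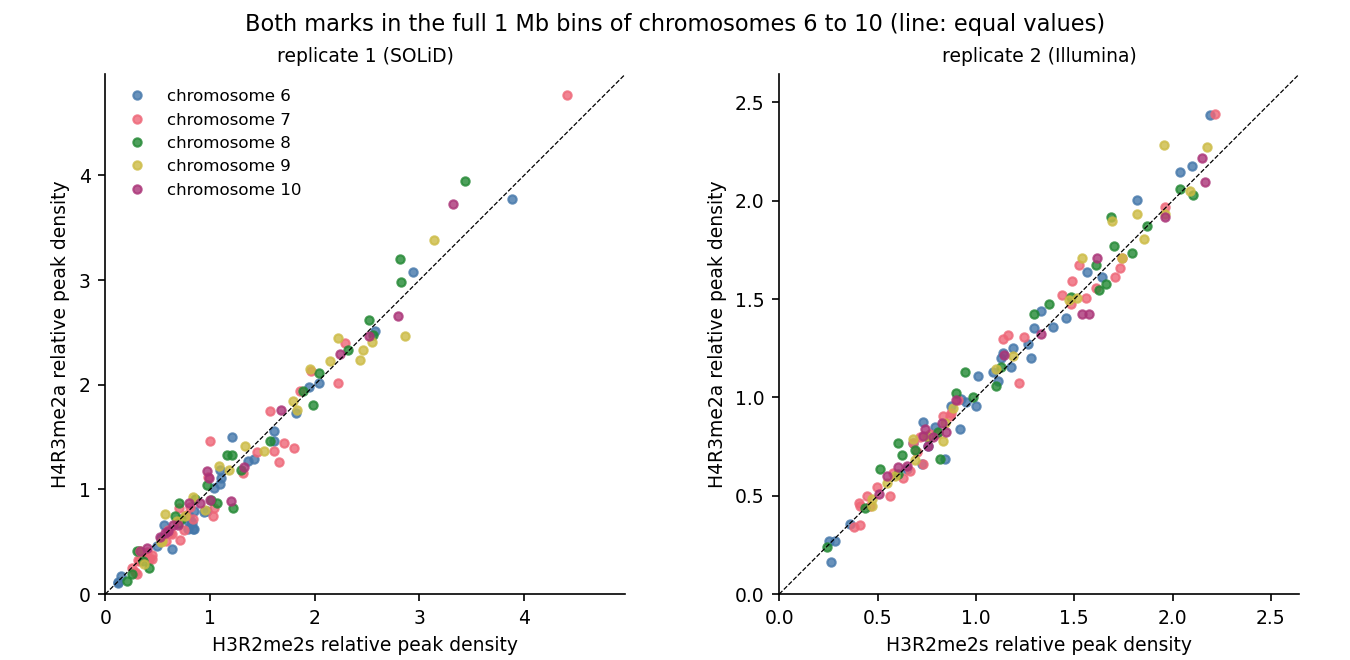
Relative peak density of H4R3me2a (vertical axis) against H3R2me2s (horizontal axis) in the 140 full 1 Mb bins, coloured by chromosome, for replicate 1 (SOLiD, left) and replicate 2 (Illumina, right); the dashed line marks equal values. Bins of all 5 chromosomes lie along the line, and limma called 0 of them.

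The site that ranked highest over all 4 lists on these chromosomes was 9:9255556-9256077, a region of 522 bp on chromosome 9. By the authors' fold enrichment over local background, its peaks stood 61st of 103231 and 220th of 120536 for H3R2me2s, with folds of 34.03 and 9.73. For H4R3me2a they stood 71st and 56th, with folds of 52.98 and 12.9. An input peak with a fold of 6.60 lay on it. The fold depends on caller and control, so it places a peak within its own list only.

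The first region of chromosome 6, 6:31463327-31464245, had no input peak. It measured 919 bp and stood 95th and 42nd for H3R2me2s, with folds of 31.3 and 11.5. For H4R3me2a it stood 66th in replicate 1, with a fold of 54.1, but 2289th in replicate 2, with a fold of 7.39. On chromosome 8 the first region, 8:9612607-9613355, stood 32nd and 35th in the Illumina lists but 1993rd and 1915th in the SOLiD lists, and it lay on an input peak that ranked 10th of its list, with a fold of 22.7. The first region off input peaks there was 8:7418833-7419771, in the top 7.499 and 0.828% for H3R2me2s and the top 1.93 and 0.141% for H4R3me2a, inside the dense block at 4 to 8 Mb.

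On chromosome 10 the first region, 10:12958702-12959086, also lay on a strong input peak, in the top 0.441% of the input list. Its ChIP peaks stood in the top 0.504 and 3.75% for H3R2me2s and the top 0.124 and 1.02% for H4R3me2a. The first region off input peaks was 10:16300520-16301499, of 980 bp, in the top 1.959 and 4.01% and the top 5.76 and 0.468%. On chromosome 7 the first region, 7:31254073-31254696, was in the top 4.12 and 0.585% and the top 1.06 and 1.19%, with an input peak of middle rank, and the first off input peaks was 7:32333193-32333815, in the top 2.75 and 1.22% and the top 3.99 and 0.594%. On chromosome 9 the first off input peaks was 9:9890587-9891349, where the H3R2me2s folds were 32.6 and 7.07 and the H4R3me2a folds 55.3 and 8.75. All of these regions lay over 5 Mb from the nearer end, outside the terminal parts where peaks were densest. No annotation of the build of the lists was used here, so genes at these sites are not named.

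Longer clusters were of different kinds on the 5 chromosomes. Chains of regions in all 4 lists, with gaps of at most 1 kb, reached 4724 bp on chromosome 6 (6:18028722-18033445), 3869 bp on chromosome 8 (8:17240473-17244341) and 4112 bp on chromosome 9 (9:16431548-16435659), all inside the chromosomes and without an input peak. On chromosome 7 the longest, 7:6259-11019, and on chromosome 10 the longest, 10:102111-106342, lay at the low-coordinate end and each held 6 input peaks. The longest clusters of input peaks were 6937 bp on chromosome 9 (9:1890409-1897345, 8 peaks), 5256 bp on chromosome 10 (10:73357-78612, 6 peaks) and 3920 bp on chromosome 6 (6:4752596-4756515, 4 peaks). They also held ChIP peaks: at the cluster on chromosome 9, H3R2me2s had 4 and 3 peaks and H4R3me2a 3 and 4 in replicates 1 and 2.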

How the data were processed

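The peak lists were deposited by the authors, 1 per library, with no pooling. Per the file headers, replicate 1 lists came from MACS 1.4.2 with a control (23.3 M tags) at p of 1e-05, and the others from MACS 2.0.10.20120913 with no control at a q-value of 0.05; both kept 1 tag per position. The deposited values are tag counts, fold enrichment (a ratio), a score of 10 times −log10 p and a false discovery rate in percent in the replicate 1 lists. In the other lists the authors' deposited values are the pileup height at the summit (a signal in tags, made by MACS, per the file headers), fold enrichment, and −log10 of the p-value and q-value. Folds were used only to rank peaks within a list. For the Illumina lists, aligner and build were not given in the sources used here; folder names in the replicate 1 headers hold "gal3".

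Peaks were placed by midpoint with Python 3.11.15, numpy 2.4.6 and pandas 2.3.3. A chromosome's length ran from its lowest peak start to its highest peak end, less stretches over 1 Mb with no peak. Overlap needed 1 bp. Wilson and Poisson intervals are at 95%. limma 3.58.1 (R 4.3.3) was fitted to log2 of peaks per 10000 plus 0.5, with Benjamini-Hochberg adjustment. All bins with a mean of at least 5 peaks were used. The fit was tried on simulated counts with changes larger than the differences named above. That trial cannot show whether differences of the size seen here would be called. Replicate numbers stand for the platform, and same-numbered libraries deviated together (r = 0.894 over 1039 bins), so the fit with the number as a block is given beside it. Named regions were those of lowest mean rank over the 4 lists, the densest and sparsest bins and the longest chains. Members, lists and rules were chosen with earlier results of these data known. Alternatives were other peak subsets, end widths, units and left-out replicates.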

Additional observations from a re-analysis of the deposited data

Results flagged for a closer look

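On all 5 chromosomes the 4 ChIP lists lay above the density of the whole list and the input below it. On chromosomes 6, 8 and 10 the counting interval of the input held the density of its list. On chromosome 7 those of H3R2me2s replicate 2 and H4R3me2a replicate 1 held the density of theirs. With 1 input library the difference between ChIP and input was not tested. The mean of the 4 ChIP lists was 1.11 on chromosome 6 (1.08 to 1.13, input 0.938), 1.04 on chromosome 7 (1.02 to 1.07, input 0.664), 1.28 on chromosome 8 (1.16 to 1.39, input 0.949), 1.398 on chromosome 9 (1.26 to 1.51, input 0.807) and 1.30 on chromosome 10 (1.22 to 1.39, input 0.960).

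At the low-coordinate ends of chromosomes 6, 7 and 8 the ChIP lists were all below the inner density and the input above it, again untested. The ChIP means were 0.728, 0.572 and 0.514, and the input stood at 1.63, 1.47 and 1.07, on 30, 18 and 20 peaks. On chromosome 8 the input was thus barely above its inner density (10 against 9.38 per Mb). Of its 20 peaks there, 17 lay 1 to 1.5 Mb from the end. At the high-coordinate end of chromosome 6 the order was the opposite, with a ChIP mean of 2.35 (1.75 to 3.01) and an input of 0.817, which rests on 15 input peaks and was not tested. Both marks fell on the same side in these cases by the rule that picked them, which took only cases with all ChIP lists opposite the input.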

How the results depend on the processing

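Of 230 values under another setting, 55 moved by more than the replicate SD or counting interval, and the other 175 were counted as unmoved. With a replicate left out, the densities and end ratios of the marks cannot move by more than the replicate SD. Those settings are counted among the 175 but cannot show whether a result is stable. The p limit of 1e-05 was already the cutoff of the replicate 1 lists. Under it the overlap of the marks in replicate 1 had no room to move, and it too is among the 175. For the densities and end ratios of the marks, only the replicate 2 values could change under this limit. The 11 limma settings, each with 0 bins called, are also among the 175, and no SD or interval applies to them. A length to the highest peak end, ends from coordinate 1 and ends without the outermost 0.5 Mb were chosen after seeing the data. Mean relative density by bases covered was 1.06 and 1.04 (H3R2me2s, H4R3me2a) on chromosome 6 and 0.980 and 0.959 on chromosome 7. For both marks on chromosome 7, and for H4R3me2a on chromosome 6, the replicates lay on opposite sides of 1. With lengths to the highest peak end it was 1.09 for H3R2me2s on chromosome 6 and 1.01 for H4R3me2a on chromosome 7. H4R3me2a on chromosome 7 was 1.01 in the upper 50% by fold and 1.053 off input peaks. The input in its upper 50% was 0.524 on chromosome 7, 0.794 on chromosome 10 and 0.753 on the 5 together.

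The high-coordinate end of the input was 2.24 times the inner density with ends of 1 Mb, 1.15 with 3 Mb and 0.780 without the outermost 0.5 Mb. Both ends of the input together gave 2.18, 1.33 and 0.995 in these settings and 1.93 by bases covered. Its low-coordinate end was 2.22 by bases covered, 1.34 from coordinate 1 and 1.21 without the outermost 0.5 Mb. For H4R3me2a the low-coordinate end was 1.02 in the upper 50%, 1.004 off input peaks, 1.06 by bases covered, 0.991 with ends of 1 Mb, 1.06 with 3 Mb, 1.047 without the outermost 0.5 Mb and 0.725 from coordinate 1, where H3R2me2s was 0.746. The excess of both marks at the high-coordinate end kept its direction in all settings run.

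Overlap of replicates (H3R2me2s, H4R3me2a) was 53.1 and 44.0% where 50% of the peak had to be covered, 31.6 and 36.0% in the upper 50% and 63.1 and 64.4% at p of 1e-05 or less. Overlap of marks (replicates 1, 2) was 88.6 and 82.2% with 50% of the peak and 75.7 and 73.9% in the upper 50%. Overlap with input was 0.207 and 0.298% (H3R2me2s) and 0.221 and 0.647% (H4R3me2a) with 50% of the peak, 1.56 and 4.27% and 2.09 and 4.46% in the upper 50%, and 2.55% (H3R2me2s) and 3.94% (H4R3me2a) in replicate 1 at p of 1e-05 or less. Regions of 1 mark were 5.92% (H3R2me2s) and 6.61% (H4R3me2a) with equal numbers of top peaks, and 24.98 to 30.69% and 9.54 to 16.5% with a replicate left out. The cause of these shifts was not tested, apart from what held by construction: fewer libraries or peaks were compared, and input peaks were narrower than ChIP peaks.

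With the replicate block, in which the replicate number stands for the platform, limma called 0 bins, as in the fit without it and in the other 10 settings; of 1039 bins, 26 had an unadjusted p under 0.05 without H4R3me2a replicate 2. The shallowest ChIP list rests on 10.3 M tags, and the input list held 10193 peaks from 27.1 M tags, so ratios to the input rest on few peaks, at most 39 in a bin.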

Other observations

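The flanks of the stretches without peaks differed between chromosomes. Beside the stretch of chromosome 8, the input held 2.39 times its list's density in the 1 Mb before and 4.28 times in the 1 Mb after, while H3R2me2s held 0.472 and 0.758 times before and 0.334 and 0.564 times after in replicates 1 and 2. Beside the stretch of chromosome 10, H3R2me2s held 2.57 and 2.02 times before and 2.19 and 1.77 times after, and the input 0.896 and 1.39 times. On chromosome 7 the flank before was rich in both marks, at 2.17 and 1.79 times for H3R2me2s and 1.91 and 1.87 times for H4R3me2a, and the flank after held 0.856 and 1.053, and 0.573 and 1.13.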
